A study of Mus musculus with 2 samples.

Results

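Natural killer (NK) receptor genes were described in lymphocytes of the MRL-lpr mouse kidney. The 10 genes, chosen by symbol, were Ncr1, Klrb1c, Klre1, Klra4, Klrk1, Klrd1, Klrc1, Klrc2, Klrb1b and Fcgr3, out of 31053 rows of the gene table, and 10 of 10 were found. The data were single-cell 3′ RNA libraries of kidney cells, 1 from young and 1 from old mice, and both groups carried the genotype MRL-lpr, so no library without the lpr allele entered a comparison. The lpr allele disables the death receptor Fas, and old mice of this strain develop a lupus-like kidney disease. Per the study's methods the kidneys were pooled and female, and live cells were sorted after a density gradient and an enrichment for innate lymphoid cells.

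NK cells kill stressed or infected cells when signals from activating receptors outweigh those from inhibitory ones. Most of the genes described here code for lectin-like receptors of the NK gene complex. NKp46, encoded by Ncr1, and the IgG receptor encoded by Fcgr3 are of the immunoglobulin family instead. CD8 T cells that have met antigen, gamma-delta T cells and some other lymphocytes are known to use part of the same set. T cells with neither CD4 nor CD8 (double-negative T cells) accumulate in lpr mice, and ILC2s are innate lymphocytes that make type-2 cytokines.

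Barcodes were kept when 200 genes or more were seen and no more than 20% of their UMIs (unique molecular identifiers, each standing for 1 captured RNA molecule) came from mitochondrial genes, which left 11429 young and 10232 old cells with medians of 7881 and 6933 UMIs. Lymphocytes were gated on marker genes, none of them a receptor gene described here. The NK gate asked for no UMI of Cd3d, Cd3e, Cd3g and Trac and for UMIs of at least 3 of 7 NK markers (Eomes, Tbx21, Gzma, Prf1, Txk, Styk1, Il2rb). It held 146 young and 208 old cells, the CD8 T gate 122 and 997, the double-negative T gate 295 and 1575, the gamma-delta T gate 75 and 43 and the ILC2 gate 1218 and 301. Cells are named by their gate below, and a gate can hold cells of other kinds. Median UMIs per cell in these gates lay between 3884 and 6221. The enrichment and the sort can set these numbers of cells, which were not compared between ages. The libraries shared 26 cell barcode sequences among the cells kept. UMIs of Y-linked genes without Xist stood in 50.8% of young against 40.6% of old cells, which goes against the stated sex of the mice, so ratios between ages that moved most are also given within the Y-linked and the Xist class of cells.

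The NK gate was checked against markers of other cells. Cd5 was at 0 in both libraries, as were the 4 genes of the gate itself, whereas Trbc1 gave a UMI in 76.7% of young against 86.1% of old gated cells, Trbc2 in 47.9% and 49.5%, and Cd28 in 41.1% and 29.8%. Trdc, which defines the gamma-delta T gate, was found in 26.7% and 30.8% of NK-gated cells. The 8 macrophage and monocyte markers summed to 12.4 CPM (UMIs scaled to 1000000 UMIs of the gate) in young and 345 CPM in old gated cells. Among them C1qb, C1qc and Adgre1 were at 0 in both libraries, but cells with at least 2 C1q UMIs had been left out of the gate. Lyz2, Csf1r, Cd68 and Ms4a7 had UMIs in the old gate. The 5 proximal tubule markers summed to 2504 and 701 CPM. The part of these other transcripts in the results below was not tested.

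With 1 library per age, no difference between ages could be set against a spread between replicates, so no p-value is given. Levels are CPM with exact Poisson 95% intervals, shares of cells carry exact Clopper-Pearson intervals, and ratios carry exact conditional binomial intervals. UMIs of 1 library share its mice, sort and preparation, so all intervals cover counting error only. Where a gene had no UMI, the limit is the level of 3 UMIs. A level summed over a gate cannot tell fewer cells with a transcript from less of it per cell, so shares of cells are given beside it.

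Of the 10 genes, 8 lie in the NK gene complex on chromosome 6 (GRCm38), from Klrb1c at chr6:128778485-128789215 to Klra4 at chr6:130043731-130067271. Klre1, Klrd1, Klrk1, Klrc2 and Klrc1 stand between them at chr6:129577905-129678973. Ncr1 lies on chromosome 7 (chr7:4337724-4345164) and Fcgr3 on chromosome 1 (chr1:171051174-171064935). Within the last 500 bases of their transcripts, 32.6% of the 90-base words of Klrc1 also occurred in Klrc2, and no other member shared a word with another gene. Klrc1 and Klrc2 values are therefore uncertain against each other. The reads were aligned to the C57BL/6J genome, whose NK gene complex can differ from that of MRL mice, so a low count of a polymorphic gene such as Klra4 may be too low.

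Sequences at the start sites of 5 genes are shown because these genes range from Ncr1 and Klrb1c, near 0 in CD8 T cells, to Klrc1 and Klrc2, which old CD8 T and NK-gated cells shared at like levels. They are RefSeq windows (GRCm38.p6) of 250 bases before to 50 bases after a start site, read on the coding strand. Capitals mark the T-box word TCACAC, the Runx word TGTGGT and the Ets core GGAAGT on either strand, and no marked words overlap in these windows.
Ncr1, chr7:4337465-4337764, plus strand: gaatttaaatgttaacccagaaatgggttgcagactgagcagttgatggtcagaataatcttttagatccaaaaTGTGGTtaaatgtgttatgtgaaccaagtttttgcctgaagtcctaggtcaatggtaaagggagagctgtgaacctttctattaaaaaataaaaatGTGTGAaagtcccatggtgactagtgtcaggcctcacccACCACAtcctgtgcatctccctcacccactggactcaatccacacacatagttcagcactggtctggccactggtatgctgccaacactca
Klrb1c, chr6:128788592-128788891, minus strand: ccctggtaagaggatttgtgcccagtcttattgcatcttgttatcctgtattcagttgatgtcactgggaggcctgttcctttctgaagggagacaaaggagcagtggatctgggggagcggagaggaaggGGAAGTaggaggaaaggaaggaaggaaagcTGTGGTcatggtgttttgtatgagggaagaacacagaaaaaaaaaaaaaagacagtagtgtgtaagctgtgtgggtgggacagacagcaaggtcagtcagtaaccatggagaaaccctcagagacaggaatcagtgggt
Klre1, chr6:129577963-129578262, plus strand: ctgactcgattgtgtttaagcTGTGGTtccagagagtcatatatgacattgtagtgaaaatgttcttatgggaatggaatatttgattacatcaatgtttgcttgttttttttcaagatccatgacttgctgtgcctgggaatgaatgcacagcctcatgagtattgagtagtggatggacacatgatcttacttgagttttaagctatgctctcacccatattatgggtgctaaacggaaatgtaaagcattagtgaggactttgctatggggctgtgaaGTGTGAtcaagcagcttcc
Klrc1, chr6:129678924-129679223, minus strand: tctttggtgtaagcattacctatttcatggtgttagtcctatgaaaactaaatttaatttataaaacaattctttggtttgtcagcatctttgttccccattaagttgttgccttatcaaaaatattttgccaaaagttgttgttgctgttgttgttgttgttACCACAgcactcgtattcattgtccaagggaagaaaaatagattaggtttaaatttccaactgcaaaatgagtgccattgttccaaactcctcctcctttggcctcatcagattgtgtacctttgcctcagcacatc
Klrc2, chr6:129660507-129660806, minus strand: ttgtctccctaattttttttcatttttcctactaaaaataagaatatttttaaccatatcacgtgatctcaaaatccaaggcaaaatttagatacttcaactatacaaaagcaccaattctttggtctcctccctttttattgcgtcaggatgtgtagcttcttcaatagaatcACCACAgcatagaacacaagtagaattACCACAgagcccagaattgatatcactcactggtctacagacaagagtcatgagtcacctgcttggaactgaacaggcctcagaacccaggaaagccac
A window was found for 9 of the 10 genes, all but Klrd1. Some genes have more than 1 start site, which gave 14 windows that overlap within a gene. The Runx word stood in 8 of the 14 windows (of Klrb1c, Klrc1, Klrc2, Klre1, Klrk1 and Ncr1), against 16.8% of all 32851 windows. The T-box word stood in 4 (of Klre1 and Ncr1), against 14.5% of all windows, and the Ets core in 3 (of Klrb1b and Klrb1c), against 23.8%. Klra4 and Fcgr3 held none of the 3 words. A word in such a window is a description and not a bound site.

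All 10 genes had their highest observed level among the 5 gates in NK-gated cells, in both libraries. For Klra4 this rank is not established in the young library, where 3 UMIs gave 3.72 CPM and the CD8 T and gamma-delta T gates, with no UMI, have limits of 4.29 and 7.84 CPM. Ncr1 stood at 1297 CPM in the young library against 1701 CPM in the old one, Klrd1 (CD94, the shared partner of the NKG2 chains) at 755 and 1085 CPM, and Klrk1 (the activating receptor NKG2D) at 619 and 727 CPM. Klre1, which codes for a receptor that pairs with Klri chains, stood at 280 and 561 CPM. The remaining genes spread over a wide range, down to 3.72 and 16.6 CPM for Klra4 (Ly49D, an activating receptor that signals through Tyrobp).

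**Figure D1:**
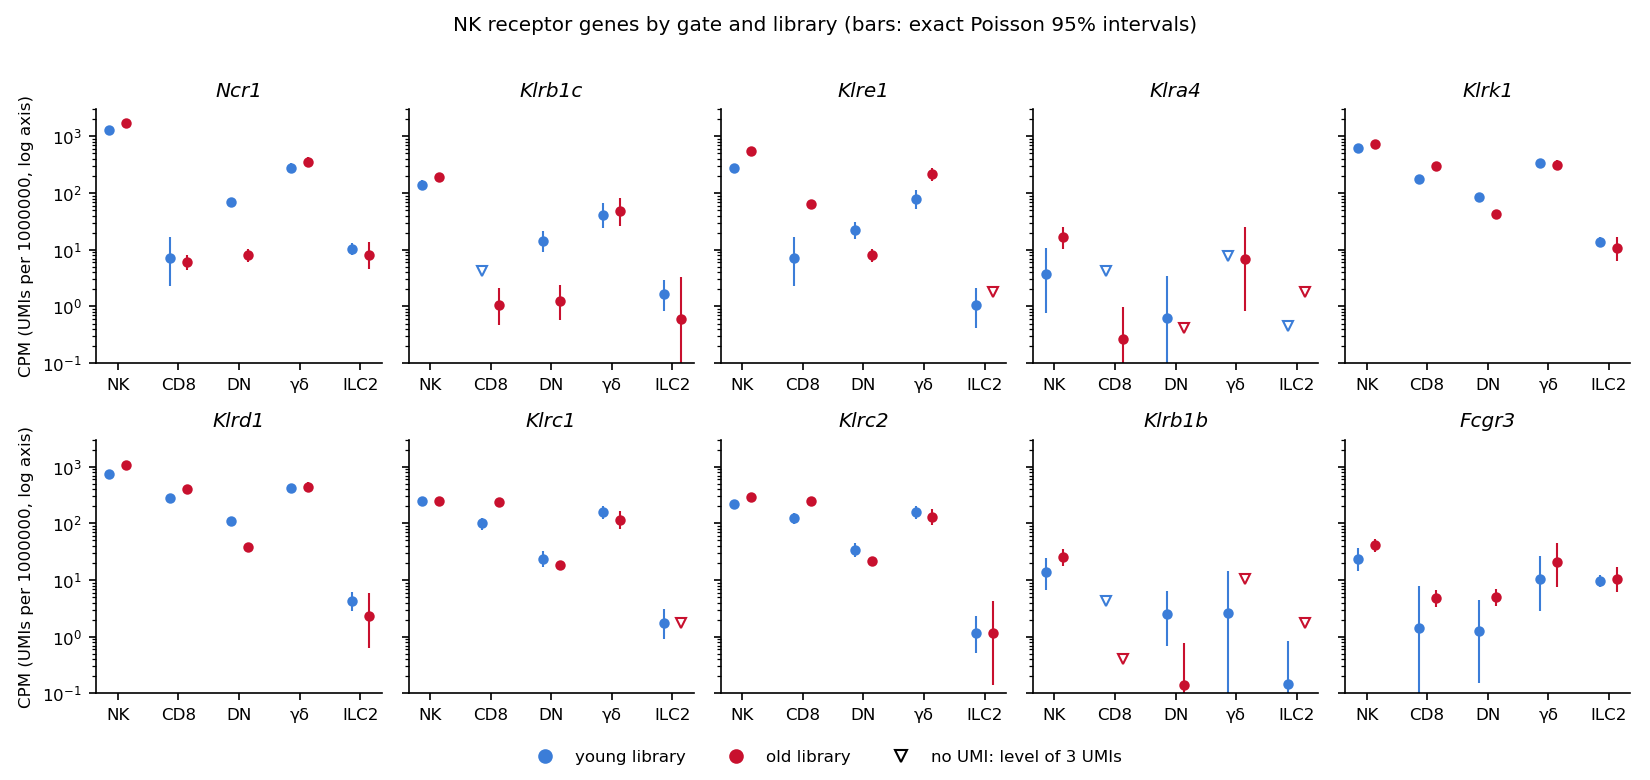
CPM (log axis) of the 10 genes in the NK, CD8 T, double-negative T (DN), gamma-delta T (γδ) and ILC2 gates, young library in blue and old in red. Bars are exact Poisson 95% intervals, some running below the axis, and open triangles mark the level of 3 UMIs where a gene had no UMI; for each gene the highest filled point is in the NK gate.

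Ncr1, Klrb1c and Klrb1b were at or near 0 in CD8 T cells. Ncr1 was 283-fold higher in NK-gated than in CD8 T-gated cells of the old library (log2 8.14, interval 7.72 to 8.60) and 181-fold in the young one (log2 7.50, 6.28 to 9.13). Klrb1c (NK1.1) was 182-fold higher in the old library (log2 7.51, 6.51 to 8.73). In young CD8 T-gated cells it had no UMI. Klrb1b, an inhibitory receptor whose ligand is encoded by Clec2d, stood at 13.6 and 25.2 CPM in NK-gated cells and had no UMI in either CD8 T gate.

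Klrk1, Klrd1, Klrc1 and Klrc2 were shared more widely. Klrk1 was 3.46-fold and 2.44-fold higher in NK-gated than in CD8 T-gated cells, young and old, and Klrd1 2.65-fold in each library. Klrc1, the inhibitory chain NKG2A, was 2.53-fold higher in the young library (log2 1.34, 0.94 to 1.75). In the old library its levels in the NK gate (245 CPM) and the CD8 T gate (240 CPM) differed by log2 0.03, with an interval of -0.15 to 0.19 that includes 0. Klrc2, the activating chain NKG2C, differed by log2 0.85 (0.47 to 1.24) in the young and by log2 0.20 (0.04 to 0.36) in the old library.

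Counted at 2-fold, with at least 20 UMIs over both gates, 7 of 8 genes were higher in NK-gated than in CD8 T-gated cells of the young library, where 12.1% of all genes were. In the old library the count was 8 of 10 against 6.74% of all genes. Against double-negative T cells it was 8 of 8 and 10 of 10, with 6.35% and 7.95% of all genes. Against ILC2s it was again 8 of 8 and 10 of 10, with 9.71% and 10.2%. Against gamma-delta T cells, 4 of 8 were higher in the young library (Ncr1, Klrb1c, Klre1 and Fcgr3) and 9 of 10 in the old one (all but Fcgr3), with 6.9% and 7.11% of all genes. The median log2 ratio of the genes counted ran from 1.02 (young, over gamma-delta T cells) to 8.61 (old, over ILC2s). Over all genes the medians lay between -0.10 and 0.25.

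The next gate in order was gamma-delta T for most genes, and the distance was small for some. The interval of the NK gate over the next gate included 0 for Klra4 and Fcgr3 in both libraries, for Klrb1b in the young library and for Klrc1 in the old library, so these neighbours did not differ beyond counting error. When NK-gated cells with a UMI of Trbc1 or Trbc2 were left out, 23 young and 21 old cells remained, and 9 of the 10 genes were still highest in them in each library.

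By cells, Ncr1 was found in 134 of 146 young NK-gated cells (91.8%, 86.1 to 95.7) and in 198 of 208 old ones (95.2%). Klrd1 was found in 89.7% and 92.8%, Klrk1 in 89.7% and 90.9%, Klre1 in 54.1% and 77.9%, Klrb1c in 45.9% and 59.1%, Klrc1 in 57.5% and 57.7%, and Klrc2 in 56.2% and 64.4%. Proximal tubule cells, which should lack these genes and had medians of 14132 and 15159 UMIs, gave a UMI of any one of them in at most 0.89% of cells. Klra4 was found in 1.37% and 3.85% of NK-gated cells, Klrb1b in 7.53% and 13.9%, and Fcgr3 in 9.59% and 18.8%. After thinning each cell to 1000 UMIs, Klre1 was found in 23.8% (17.1 to 31.6) of young and 44.2% (37.3 to 51.2) of old NK-gated cells. Ncr1 was then found in 67.8% (59.5 to 75.4) and 77.7% (71.4 to 83.2), and these intervals overlap.

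Most NK-gated cells carried several receptors at once. At least 4 of the 10 genes gave a UMI in 83.6% of young and 91.3% of old NK-gated cells. The shares were 13.1% and 43.5% in the CD8 T gate, 34.7% and 39.5% in the gamma-delta T gate, 7.80% and 2.10% in the double-negative T gate, and 0.493% and 0% in the ILC2 gate, where 0 of 301 old cells has an exact upper bound of 1.22%. These shares were not thinned, and the median depth of the CD8 T gate was 5252 UMIs in the young and 6221 in the old library.

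**Figure D2:**
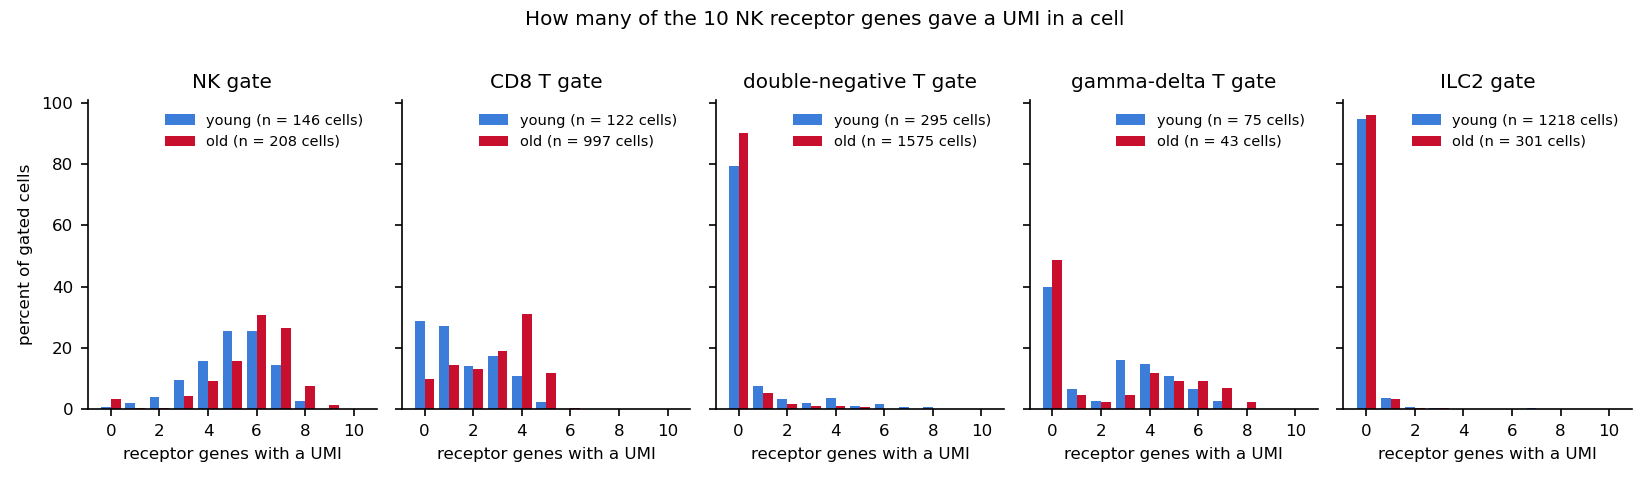
Percent of gated cells (bars) by the number of the 10 receptor genes with a UMI, young in blue and old in red, 1 panel per gate. NK-gated cells peak at 5 or 6 genes, most double-negative T and ILC2 cells have none, and the old CD8 T gate peaks at 4.

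Within the NK gate, Klre1 was higher in cells with a UMI of Eomes, a transcription factor of NK cells that is low or absent in ILC1s. Young NK-gated cells with an Eomes UMI (55 cells) had 460 CPM of Klre1 and those without (91 cells) 150 CPM, a log2 ratio of 1.62 (1.20 to 2.05). In the old library the levels were 634 CPM in 103 cells and 473 CPM in 105 cells, a log2 ratio of 0.42 (0.21 to 0.64). Ncr1 went the other way in the young library, with 1097 CPM in cells with Eomes and 1443 CPM in cells without (log2 -0.40, -0.58 to -0.21). In the old library its ratio was log2 -0.05 (-0.16 to 0.07). Klrk1 followed Ncr1 in the young library (log2 -0.40, -0.67 to -0.13), and Klrc2 was lower in cells with Eomes in the old one (log2 -0.56, -0.85 to -0.27). Klra4 was higher in old cells with Eomes, at 26.3 against 4.77 CPM (log2 2.46, 0.71 to 4.86), but its 20 and 3 UMIs came from 7 cells and 1 cell. The shares of cells were 6.80% (2.78 to 13.5) and 0.952% (0.0241 to 5.19), and these intervals overlap. In the young library it rested on 1 and 2 UMIs (log2 -0.54, -6.42 to 3.73). Eomes is a gate marker, and a cell without an Eomes UMI had to hold 3 of the other markers.

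Between ages, Klre1 and Klra4 were at least 2-fold higher in old NK-gated cells and no gene was 2-fold lower. These were 2 of 10 genes, against 3.35% of all 7977 genes counted that were higher and 5.68% that were lower. The median log2 ratio of the 10 genes was 0.50, and that of all genes -0.08. Klre1 stood at the mark, at 2.0-fold (log2 1.0, 0.79 to 1.22), and at log2 0.67 when the CPM of single cells was averaged. Klra4 rested on 3 young and 23 old UMIs (log2 2.15, 0.43 to 4.53).

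The other genes of the NK gate moved less. Ncr1 differed by log2 0.39 (0.29 to 0.50), Klrd1 by 0.52 (0.39 to 0.66), Klrb1c by 0.47 (0.15 to 0.80), Klrc2 by 0.38 (0.12 to 0.64) and Klrk1 by 0.23 (0.08 to 0.39), each higher in the old library. Klrc1 differed by log2 -0.05 (-0.30 to 0.21) and Klrb1b by 0.89 (-0.12 to 2.01), with intervals that include 0. Fcgr3 differed by log2 0.80 (0.03 to 1.63), from 19 young to 57 old UMIs, beside the macrophage and monocyte marker sums given above. In NK-gated cells without a UMI of macrophage, monocyte or neutrophil markers it differed by log2 0.85. Klre1 differed there by log2 0.91, in cells with Y-linked and no Xist UMIs by log2 1.36, and in cells with Xist and no Y-linked UMIs (18 young and 62 old) by log2 0.59. In those Xist cells Klrd1 differed by log2 0.15, Klrc1 by -0.36, Klrc2 by -0.31 and Fcgr3 by -0.72, so no gene with enough UMIs passed 2-fold in either direction.

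**Figure D3:**
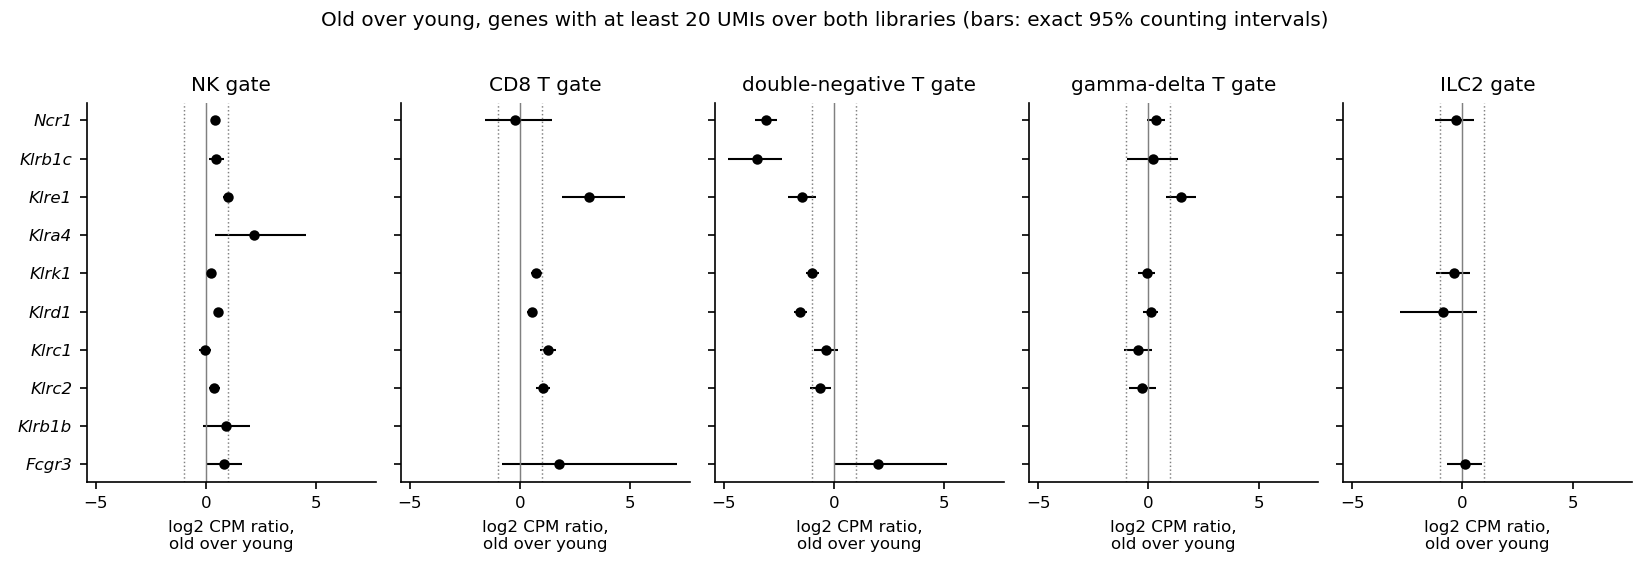
Log2 ratio of CPM, old over young, of each gene with at least 20 UMIs over both libraries of a gate, 1 panel per gate, with exact 95% counting intervals. Dotted lines mark 2-fold; Klre1 lies to the right in the NK, CD8 T and gamma-delta T gates and to the left in the double-negative T gate.

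In CD8 T-gated cells, Klre1, Klrc1, Klrc2 and Fcgr3 were at least 2-fold higher in the old library, 4 of 7 genes counted, and none was lower. In this gate 12.4% of all genes were higher and 3.81% lower. The median log2 ratio of the 7 genes was 1.03, against 0.07 over all genes. Klre1 stood at 7.15 CPM in the young library against 63.1 CPM in the old one (5 and 472 UMIs, log2 3.14, 1.91 to 4.77), Klrc1 at 100 and 240 CPM (log2 1.26, 0.92 to 1.63) and Klrc2 at 123 and 251 CPM (log2 1.03, 0.72 to 1.36). Klrk1 stood at 179 and 298 CPM (log2 0.74, 0.48 to 1.01) and Klrd1 at 285 and 409 CPM (log2 0.52, 0.32 to 0.74), both under 2-fold. Ncr1 stayed low, at 7.15 CPM (5 UMIs, all in 1 cell) and 6.02 CPM (45 UMIs in 6 of 997 cells).

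The CD94 and NKG2 genes were found in more CD8 T-gated cells of the old library. Klrc1 gave a UMI in 32.8% of young against 63.6% of old cells, Klrc2 in 31.1% and 69.2%, Klrd1 in 55.7% and 68.7%, and Klrk1 in 36.9% and 63.0%. After thinning to 1000 UMIs the shares were 11.5% (6.42 to 18.5) and 22.6% (20.01 to 25.3) for Klrc1 and 9.84% (5.19 to 16.6) and 25.1% (22.4 to 27.9) for Klrc2, with intervals that do not overlap. For Klrd1 they were 23.8% (16.5 to 32.3) and 30.9% (28.1 to 33.9), which overlap. Klrc1 and Klrc2 were found together in 18.9% (12.3 to 26.9) of young and 54.4% (51.2 to 57.5) of old CD8 T-gated cells, as counted. The part that their shared sequence has in this was not tested. A Klrc gene without its partner Klrd1 was found in 12.3% and 18.9%.

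Most old CD8 T-gated cells also held NK markers. In the old library 666 of 997 cells had UMIs of at least 3 NK markers. Klrc1 stood at 245 CPM in them and at 228 CPM in the other 331 cells, Klrk1 at 290 and 321 CPM, and Klrd1 at 399 and 438 CPM. Klrc2 was lower in the cells with such markers, at 239 (226 to 252) against 284 (261 to 309) CPM, and Klre1 was higher, at 67.8 (61.1 to 75.0) against 49.9 (40.5 to 60.8) CPM. In the young library Klrc1 stood at 140 CPM in the 39 cells with such markers and at 74.7 CPM in the other 83. Myeloid transcripts differed between the ages: macrophage and monocyte markers summed to 7.2 CPM in young and 254 CPM in old CD8 T-gated cells, and neutrophil markers to 2.86 and 211 CPM. Without cells holding such UMIs (115 young and 801 old cells left), the log2 ratio was 3.92 for Klre1, 1.34 for Klrc1 and 1.15 for Klrc2. Fcgr3 rested on 1 young and 36 old UMIs (log2 1.75, -0.82 to 7.09), and on cell-averaged CPM its log2 ratio was 0.07. Cells of this gate with Y-linked and no Xist UMIs numbered 78 young and 419 old. Their log2 ratio was 5.15 for Klre1 (from 1 young UMI), 1.73 for Klrc1, 1.17 for Klrc2 and 1.14 for Klrk1. Cells with Xist and no Y-linked UMIs numbered 11 young and 345 old. Their log2 ratio was 1.78 for Klre1, 2.93 for Klrc1 and 2.04 for Klrk1, from only 1, 2 and 5 young UMIs. Klrc2 had no UMI in those young cells.

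In the double-negative T gate, Ncr1, Klrb1c, Klre1 and Klrd1 were at least 2-fold lower in the old library, 4 of 8 genes, and Fcgr3 was higher. Of all genes in this gate 11.2% were lower and 12.8% higher. The median log2 ratio of the 8 genes was -1.23, against 0.00 over all genes. Ncr1 stood at 69.1 CPM in the young library against 8.14 CPM in the old one (log2 -3.09, -3.57 to -2.61), Klrb1c at 14.4 and 1.26 CPM (log2 -3.52, -4.81 to -2.35), Klrd1 at 109 and 37.6 CPM (log2 -1.54, -1.82 to -1.26) and Klre1 at 22.0 and 8.0 CPM (log2 -1.46, -2.09 to -0.81). Klrk1 stood just inside the mark, at 86.7 and 43.4 CPM (log2 -1.0, -1.29 to -0.70). Klrc1 differed by log2 -0.39 (-0.92 to 0.17) and Klrc2 by log2 -0.63 (-1.09 to -0.16). Fcgr3 rested on 2 young and 36 old UMIs (log2 2.01, 0.05 to 5.11). Macrophage and monocyte markers summed to 107 and 364 CPM in this gate. Other markers differed in it between the ages too. Cd3d was found in 50.2% of young against 93.7% of old cells, Cd3e in 51.9% and 86.5%, and Cd28 in 39.7% and 80.4%. Cd3g went the other way, at 95.6% and 88.7%. Any of 7 ILC2 markers gave a UMI in 70.2% of young against 18.0% of old cells. The part of this make-up in the ratios of this gate, here and below, was not tested.

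Few double-negative T cells carried these transcripts, and 20.7% of young against 9.90% of old cells had a UMI of any of the 10 genes. In the young gate 30 of 295 cells had UMIs of at least 3 NK markers, and these held 80.9% of its Ncr1, 73.9% of its Klrb1c and 82.9% of its Klre1 UMIs. Their levels were 533 CPM of Ncr1, 563 CPM of Klrk1 and 640 CPM of Klrd1, whereas the other 265 cells had 14.7, 30.9 and 47.0 CPM. In the old gate 668 of 1575 cells had at least 3 NK markers, and in these Ncr1 stood at 13.7 CPM, Klrk1 at 57.0 CPM and Klrd1 at 52.5 CPM. Ncr1 was found in 17 young and 9 old cells of the whole gate, with means of 6.47 and 6.44 UMIs in such a cell, against 7.81 and 11.9 in NK-gated cells. The young gate also held more ILC2 marker transcripts, 1272 CPM against 125 CPM over 7 genes. With cells of at least 3 NK markers left out, the log2 ratio was -2.54 for Ncr1, -1.06 for Klrd1 and -0.06 for Klrk1. Klre1 then had 6 young and 12 old UMIs (4.21 and 3.38 CPM) and Klrb1c 6 and 0, too few to be counted, so 2 of the 4 lower genes were left. Among cells with at least 5000 UMIs it was -1.85 for Ncr1, -0.82 for Klre1 and -0.52 for Klrd1, so the last pair no longer passed 2-fold and 1 gene was counted as lower. Cells with Y-linked and no Xist UMIs numbered 141 young and 381 old, and cells with Xist and no Y-linked UMIs 80 and 817. The log2 ratio in these classes was -2.99 and -2.74 for Ncr1, -2.23 and -1.84 for Klre1 and -2.11 and -1.64 for Klrd1. Klrb1c rested on 14 young and 2 old UMIs in the Y-linked class (17.8 and 1.04 CPM). In the Xist class it rested on 6 and 3 UMIs (13.5 and 0.786 CPM).

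Next to the NK gate, the gamma-delta T gate had the highest levels of Ncr1, Klrb1c, Klre1, Klrk1 and Klrd1 in both libraries. Trdc was also found in NK-gated cells, as given above, and the part of NK cells in the gamma-delta T gate was not tested. Ncr1 stood at 277 CPM in the young library against 356 CPM in the old one, Klrd1 at 415 and 445 CPM, Klrk1 at 337 and 319 CPM, Klrc1 at 159 and 116 CPM and Klrc2 at 157 and 130 CPM. Klre1 alone was at least 2-fold higher in the old library, at 78.4 and 216 CPM (30 and 63 UMIs, log2 1.46, 0.81 to 2.14), 1 of 7 genes, and none was lower. Of all genes 5.76% were higher and 5.88% lower. The median log2 ratio of the 7 genes was 0.10, against 0.01 over all genes.

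As in the young double-negative T gate, cells with at least 3 NK markers held most of these transcripts. They were 39 of 75 young and 25 of 43 old cells. They held 91.5% and 100% of the Ncr1 UMIs, 83.7% and 83.1% of the Klrd1 UMIs and 86.7% and 96.8% of the Klre1 UMIs. Ncr1 stood at 533 and 667 CPM in them. In the other 36 young cells it stood at 44.9 CPM, and in the other 18 old cells it had no UMI. Klre1 had 4 young and 2 old UMIs in these other cells (19.9 and 14.7 CPM), under the minimum for a ratio. The 7 NK markers summed to 2187 and 6496 CPM in this gate, against 1785 and 1698 CPM in the CD8 T gate. Cd3d was found in 66.7% and 79.1% of its cells, against 97.5% and 98.1% in the CD8 T gate. With 43 old cells in the gate, single cells weigh heavily, and with 2 Trdc UMIs asked for, 2 genes in place of 1 were at least 2-fold higher in the old library. Ncr1 differed by log2 1.35 in the Y-linked class (36 young and 12 old cells) and by -0.35 in the Xist class (17 and 20 cells).

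**Figure D4:**
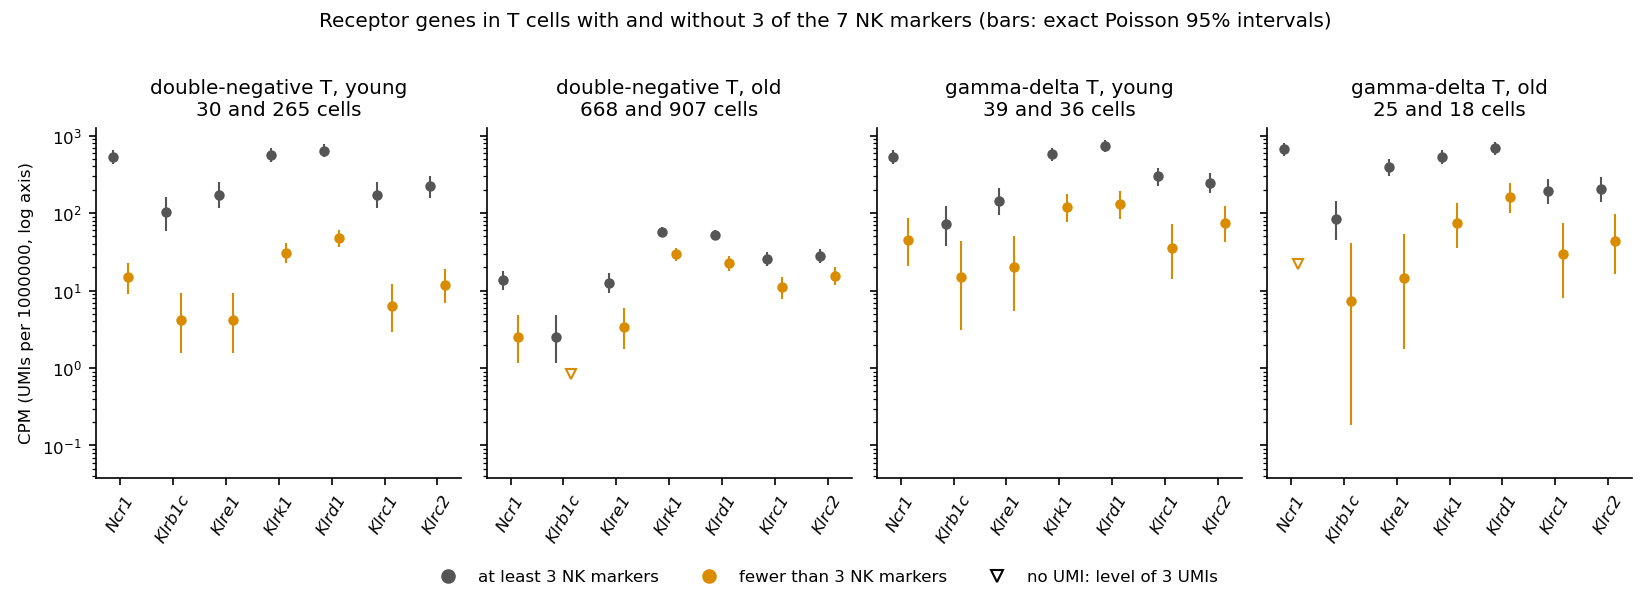
CPM (log axis) of 7 receptor genes in double-negative and gamma-delta T cells of each library, split into cells with UMIs of at least 3 of the 7 NK markers (grey) and the other cells (orange), with exact Poisson 95% intervals and open triangles for the level of 3 UMIs. The grey points lie above the orange ones in all 4 panels, and the old double-negative T gate has the lowest grey points.

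ILC2s had little of any of the 10 genes. The highest levels were those of Klrk1, at 13.8 and 10.6 CPM, Ncr1, at 10.2 and 8.25 CPM, and Fcgr3, at 9.65 and 10.6 CPM. Of 4 genes with enough UMIs none was 2-fold higher or lower in the old library, where 4.19% of all genes were higher and 5.87% lower. The median log2 ratio of the 4 genes was -0.35, against -0.03 over all genes. Klrk1 gave a UMI in 4.35% of young against 1.0% of old ILC2s and Ncr1 in 0.985% and 0.997%. Klra4 had no UMI in either library. The log2 ratio of Klrk1 was -2.76 in the Y-linked class, from 49 young and 2 old UMIs. In the Xist class it was 1.5, from 15 young and 11 old UMIs. Both rest on few old UMIs.

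Fcgr3 differed from the lectin-like genes in where it was found. Macrophages, gated on C1q genes, had 385 CPM in the young library against 565 CPM in the old one (87.5% and 92.3% of cells), against 23.6 and 41.0 CPM in NK-gated cells. The other 9 genes were highest in the NK gate also when macrophages were set beside them, and Ncr1 stood at 35.7 and 10.9 CPM in macrophages. CD4 T cells had 28.3 and 58.2 CPM of Klrd1 and 15.7 and 57.7 CPM of Klrk1, and at most 22.8 CPM of any other of the 10 genes. In proximal tubule cells no gene exceeded 0.584 CPM.

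Genes whose levels followed Ncr1 most closely were ranked by Pearson's r of log2(CPM + 1) over 10 profiles (5 gates in each of 2 libraries) among 10242 genes. The profiles of 1 library share its preparation, so r is a description. Klrb1c came first (r = 0.99), followed by Hhex, Sulf2, Itga2, Cma1, Arpc3, Scimp, Klrb1f, Serpinb9b and Klri2 (r from 0.97 to 0.99). The value of r takes no account of the size of a difference. Arpc3 lay between 405 and 634 CPM in all 10 profiles, so it was not confined to NK-gated cells. Klre1 (r = 0.84) ranked 146, Klrk1 (0.72) 509, Fcgr3 (0.70) 569, Klrd1 (0.66) 744, Klrc1 (0.57) 1155 and Klrc2 (0.57) 1197. Klra4 and Klrb1b had under 100 UMIs over the gates and were not ranked. Itga2 codes for CD49b, a mouse NK cell marker, and stood at 67.0 and 127 CPM in NK-gated cells.

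Signalling partners were abundant in NK-gated cells. Tyrobp (DAP12), the adapter of Klra4, stood at 1471 and 2302 CPM, Fcer1g, the adapter of Ncr1 and Fcgr3, at 1204 and 1450 CPM, and Hcst (DAP10), the adapter of Klrk1, at 475 and 502 CPM. Of 12 adapters and kinases 11 had enough UMIs, and Cd247 (log2 1.19, 0.71 to 1.70) and Plcg2 (log2 1.48, 0.75 to 2.27) were at least 2-fold higher in the old NK gate, where 3.35% of all genes were. In CD8 T-gated cells, with 12.4% of all genes higher, 3 of 10 were: Tyrobp went from 10.0 to 83.4 CPM (log2 3.06, 2.01 to 4.38), Fcer1g from 27.2 to 106 CPM (log2 1.96, 1.31 to 2.70), and Syk from 1 to 62 UMIs. Both adapters are also myeloid genes, and their change stands beside the myeloid marker sums of this gate. In double-negative T cells Hcst, Fcer1g and Plcg2 were lower and Cd247, the CD3 zeta chain, higher, at 76.0 and 229 CPM, out of 10, against 11.2% of all genes lower and 12.8% higher. In gamma-delta T cells Tyrobp and Fcer1g were higher and Vav1 lower, out of 8, against 5.76% and 5.88% of all genes. The NK marker sums of this gate differed between the ages, as given above. Their part in its ratios, here and below, was not tested. In ILC2s Fcer1g was higher (log2 1.37, 1.13 to 1.60), out of 10, against 4.19% of all genes.

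Other lectin-like receptors were listed too (18 of 19 in the gene table). In NK-gated cells 4 of 11 were at least 2-fold higher in the old library and none lower, against 3.35% and 5.68% of all genes. Klra5 went from 9.92 to 63.4 CPM (log2 2.67, 1.63 to 3.93) and Klra1 from 9.92 to 33.1 CPM (log2 1.74, 0.64 to 3.03), beside Klra10 and Klri1. Klra genes share much sequence and differ between strains, so single values are uncertain. In the double-negative T gate 7 of 8 were lower and none higher, against 11.2% and 12.8% of all genes, led by Klra7 (log2 -4.16, -5.60 to -2.93) and Klrg1 (from 116 to 7.30 CPM). The make-up of this gate differed between the ages, as given above, and its part in these ratios was not tested. In gamma-delta T cells 4 of 8 were higher (Klra1, Klra3, Klra5 and Klrg1) and none lower, against 5.76% and 5.88% of all genes. In CD8 T-gated cells 4 of 6 were higher (Klra3, Klra5, Klra7 and Klrb1f) and Klrg1 was lower (38.6 to 18.7 CPM), against 12.4% and 3.81% of all genes. In ILC2s 1 of 2, Klrb1f, was lower, against 5.87% of all genes.

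Of 8 other NK receptors, Cd226 (DNAM-1, an activating receptor for Pvr and Nectin2) was at least 2-fold lower in the old library in 4 gates. It went from 190 to 85.0 CPM in NK-gated, from 152 to 46.8 CPM in CD8 T-gated, from 77.9 to 16.0 CPM in double-negative T and from 201 to 82.2 CPM in gamma-delta T cells. In the NK gate it was the only one of 7 past 2-fold, where 5.68% of all genes were lower, and in the CD8 T gate the only one of 8, where 3.81% were. In double-negative T cells Crtam, Slamf6 and Slamf7 were higher (5.65 to 191, 31.4 to 290 and 39.6 to 442 CPM), and Cd244, Cd96 and Cd160 were lower beside Cd226, out of 7, against 12.8% of all genes higher and 11.2% lower. In gamma-delta T cells Crtam and Slamf6 were higher and Cd160 lower beside Cd226, out of 7, against 5.76% and 5.88%, and in ILC2s none of 6 passed 2-fold.

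Ligands of these receptors were counted in the lymphocytes themselves. In ILC2s, H2-T23, which codes for Qa-1, the ligand of the CD94 and NKG2 pairs, went from 189 to 705 CPM (log2 1.90, 1.78 to 2.01), H2-D1 from 1575 to 3676 CPM (log2 1.22, 1.18 to 1.27) and Clec2d from 31.6 to 71.3 CPM (log2 1.17, 0.84 to 1.5), 3 of 5 higher and none lower, against 4.19% of all genes higher. In double-negative T cells Clec2d and Cd48 were higher out of 5 (12.8% of all genes), in gamma-delta T cells Clec2d out of 4 (5.76%), and in CD8 T cells Ulbp1 and Pvr out of 6 (12.4%), with Ulbp1 at 1 and 30 UMIs. None of 5 passed 2-fold in the NK gate, where H2-T23 stood at 283 and 478 CPM. Raet1d, Raet1e, H60c and Nectin2 had no UMI in NK-gated cells of either library.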

How the data were processed

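Gene counts were deposited by the authors as a matrix of whole UMIs per gene and cell for each of 2 libraries (10x 3′ v3.1 chemistry, Cell Ranger 3.1.0 in the matrix header, mm10 in the submitters' processing notes), from pooled kidneys of young and old MRL-lpr mice. The files held 15076 young and 12622 old barcodes. Counts were not normalized before deposit. Cells were filtered and gated as described with Python 3.11.15, NumPy 2.4.6, SciPy 1.17.1 and pandas 2.3.3. B (2 UMIs over Cd79a and Ms4a1), C1q (2 UMIs) and proximal tubule (3 UMIs over Lrp2 and Slc34a1) cells were left out of lymphocyte gates. T gates asked for 2 CD3 UMIs, the CD8 T gate also for 2 Cd8a or Cd8b1 UMIs and no Cd4 or Trdc, the double-negative T gate for a Trac, Trbc1 or Trbc2 UMI and none of Cd4, Cd8a, Cd8b1 and Trdc, the gamma-delta T gate for Trdc without Trac, and the ILC2 gate for 2 of 4 markers (Il1rl1, Gata3, Il17rb, Il2ra), no CD3 and no NK gate. UMIs were summed per gate and library, and ratios were counted at 2-fold with at least 20 UMIs. The 10 receptor genes are named whatever their values, the genes most like Ncr1 are the 10 with the highest r among genes with at least 100 UMIs over the gates, and list genes are named where past 2-fold. In simulated counts for the NK gate, old over young (7892 genes), 98.1% of genes changed 4-fold and 50.0% of those changed 2-fold were called, as were 2.49% of 7718 unchanged genes, in either direction. These counts were drawn with Poisson error only, so the shares do not cover spread between mice, cells or preparations. Positions are from GENCODE M21. Scrublet (Scanpy 1.11.5) marked 332 young and 270 old doublets, removed in 1 alternative only. The genes, gates and lists were chosen with earlier results of these data known.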

Additional observations from a re-analysis of the deposited data

Results flagged for a closer look

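Klre1 went past 2-fold in opposite directions in different gates, old over young. Its log2 ratio was 1.0 in the NK gate, 3.14 in the CD8 T gate and 1.46 in the gamma-delta T gate, and -1.46 in the double-negative T gate. With 1 library per age the difference between gates was not tested. In the gamma-delta T gate, cells with at least 3 NK markers held 86.7% of the young and 96.8% of the old Klre1 UMIs. The other cells there had 4 and 2 UMIs (19.9 and 14.7 CPM), under the minimum for a ratio. In the double-negative T gate the young level of 22.0 CPM came mostly from 30 of 295 cells with UMIs of at least 3 NK markers. Without cells of that kind 6 young and 12 old UMIs were left (4.21 and 3.38 CPM), under the minimum for a ratio. With 1 CD3 UMI asked for the ratio was -0.52, and among cells with at least 5000 UMIs -0.82, so the lower value was no longer past 2-fold in these settings. The NK value was 0.67 on cell-averaged CPM, 0.59 in Xist cells, 0.57 with at least 4 NK markers and 0.50 without Trbc1 and Trbc2 cells, all under 2-fold.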

How the results depend on the processing

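No paired analysis was possible because each age is 1 library. Counts of genes highest in the NK gate stayed between 8 and 10 in both libraries under all alternatives run. The count at least 2-fold higher in the old NK gate (2) was 1 with Trbc1 and Trbc2 cells left out or at most 10% mitochondrial UMIs, and 0 with cell-averaged CPM or in Xist cells without Y-linked UMIs. That of double-negative T cells (1) was 0 with 1 CD3 UMI or in Xist cells, and 2 at 5000 UMIs. That of gamma-delta T cells (1) was 2 with 1 CD3 UMI, with 2 Trdc UMIs, with no minimum of UMIs or in Y-linked cells, and 0 in Xist cells, and that of ILC2s (0) was 1 in Xist cells. NK over old gamma-delta T cells (9) fell to 5 with 2 NK markers, to 5 without Trbc1 and Trbc2 cells and to 4 with 1 CD3 UMI. Without Trbc1 and Trbc2 cells NK over young gamma-delta T cells (4) was 2 and NK over old CD8 T cells (8) was 5. A pair of alternatives was chosen after seeing the data. Without T cells of at least 3 NK markers, NK over young gamma-delta T cells was 7 and gamma-delta T cells, old over young, 0. Without cells holding myeloid UMIs the counts of the old NK and double-negative T gates were 0. Counts of genes at least 2-fold lower in the old library moved in 8 of 85 cases: double-negative T cells (4) had 1 at 5000 UMIs and 2 without cells of at least 3 NK markers, and where none was counted at first, CD8 T and ILC2 cells had 1 without myeloid UMIs, gamma-delta T cells 1 with no minimum of UMIs, and ILC2s 3 with 2 NK markers, 4 with no minimum and 2 in Y-linked cells. Genes found in at least 10% of young CD8 T cells (3) fell to 1 when thinned to 500 UMIs. The cause of these changes was not tested. Of 543 log2 ratios under alternatives 487 stayed within their counting interval, and none past 2-fold reversed. Depth limits Klra4, Klrb1b and Fcgr3, and the gamma-delta T gates most.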
